A study of Mus musculus with 60 samples.

Results

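The overlapping population of the nucleus accumbens (NAc) consisted of NeuN+ cells that carried both tdTomato, the tag of cells active at cued cocaine reinstatement, and cFos protein, the mark of cells active at the later cued sucrose reinstatement. The sucrose-seeking population carried cFos without tdTomato. Both were therefore cFos-positive, and their comparison asks what distinguishes cells recruited by both rewards from cells recruited by sucrose alone. It used 12 libraries of the 60 in the series, chosen by their title codes: 6 overlapping and 6 sucrose-seeking, each set with 3 libraries from females and 3 from males.

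All libraries came from Ai14xFosiCre mice (the Ai14:cFos-TRAP2 cross), in which 4-hydroxytamoxifen lets a Cre recombinase made under the Fos promoter switch on tdTomato permanently. The sources used here describe the mice as adults. Every animal had self-administered both intravenous cocaine and sucrose, had gone through extinction and had been reinstated by cues for each reward, so the sucrose-seeking libraries were no cocaine-free control. 4-hydroxytamoxifen was given after the cocaine test only, so the tag and the reward were not counterbalanced, and the populations differed in whether the reporter was expressed as well as in the reward. Each library was a pool of 3 mice of one sex, and the overlapping and sucrose-seeking libraries with the same sex and number came from the same pool, which made 6 pairs. The labels name the core of the accumbens, whereas the study's methods place the punches mainly in lateral shell and lateral core. The sort collected events that could include debris, and the tdTomato transcript itself was not analysed here.

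Total estimated counts ran from 9955013 to 16845633 in the overlapping and from 10751480 to 22606734 in the sucrose-seeking libraries. The overlapping library was the deeper one in 1 of 6 pools (exact sign-flip permutation test, two-sided, p = 0.0625). Mitochondrially encoded genes took 1.71 to 2.25% of the counts in sucrose-seeking and 2.27 to 2.69% in overlapping libraries, higher in all 6 pools (exact sign-flip p = 0.03125, the smallest that 6 pairs can give). Pseudogenes took 4.88 to 7.71% in sucrose-seeking and 3.73 to 6.52% in overlapping libraries, lower in all 6 pools (exact sign-flip p = 0.03125). The part of these library properties in the gene results below was not tested.

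The labels disagreed among themselves. For the female NAc libraries the title and the region and sex fields gave female NAc, but a free-text description gave male prefrontal cortex; for the male prefrontal libraries the description gave female accumbens, and for male pool 3 of the prefrontal set the sex field gave female as well. The title was followed throughout, and its sex was checked on the Y-linked genes Ddx3y and Eif2s3y, chosen after their values were seen. Female pools 1 and 3 of the NAc had 0.443 to 2.03 CPM of Ddx3y, male pools 18.2 to 42.3 CPM, and female pool 2 lay between them with 13.8 to 14.0 CPM. Eif2s3y ran in the same order, with 0.0918 to 1.23, 13.4 to 42.2 and 7.04 to 14.3 CPM, so that for this gene the sucrose-seeking library of female pool 2 lay within the male range. The sex label of that pool was thus not borne out by these genes. The libraries titled as prefrontal from male pools had 24.6 to 41.9 CPM of Ddx3y. For the region, the summed D1 medium spiny neuron markers were 393 to 524 CPM in the female NAc libraries, above the 139 to 299 CPM of the male prefrontal ones. In male NAc pools 2 and 3 they were 312 to 474 CPM. Male NAc pool 1, with 265 and 284 CPM, lay within the male prefrontal range. Its level of the cortical marker Slc17a7, 442 and 555 CPM, was the highest among the NAc libraries. The region label of that pool was thus not borne out by these genes.

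The nucleus accumbens receives dopamine from the midbrain and glutamate from cortex, amygdala and hippocampus, and is needed for cue-driven seeking of drugs and food. Most of its neurons are GABAergic medium spiny neurons, which fall into a class with the D1 dopamine receptor, prodynorphin and substance P and a class with the D2 receptor and enkephalin, and a minority are interneurons that make somatostatin and neuropeptide Y, parvalbumin or acetylcholine. When such neurons fire, calcium and cyclic AMP signalling switch on immediate early genes. These are first transcription factors such as Fos and Junb, and then effectors that act at synapses, such as Arc and Homer1.

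Of 23006 genes tested, 3639 (15.8%) differed between the populations at an adjusted p under 0.05, 2270 (9.87%) being higher and 1369 (5.95%) lower in overlapping libraries (edgeR quasi-likelihood test with the pool as a block). With the stricter thresholds of the study, adjusted p below 0.01 together with a log2 fold change beyond 0.75 in either direction, 123 genes (0.535%) remained, 69 higher and 54 lower. Of the protein-coding genes tested, 11.8% were higher and 6.20% lower. Among 3515 pseudogenes 13 were higher and 158 lower. With the scaling and the tests run over protein-coding genes alone, the split was 1803 higher and 1854 lower. In that alternative both the scale and the set of genes tested changed. With the scale taken from protein-coding genes and all genes tested, an alternative added after seeing the data, 1671 were higher and 1925 lower. Without female pool 2 the total was 2129 genes, and without female pool 3 it was 1996. With counts rescaled for the effective transcript lengths that the quantification estimated in each library, the total fell to 811, and without the pool as a block it was 602. These last 2 alternatives are given with the gene lists below.

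The list with the largest median difference was that of microglia, the resident macrophages of the brain. All 15 microglial marker genes tested were higher in overlapping libraries, with a median log2 fold change of 1.36 against -0.026 over all genes tested. Their summed level, in CPM (counts per 1000000 of the library with TMM scaling), was 225 to 331 CPM in the sucrose-seeking and 588 to 787 CPM in the overlapping libraries, so the groups did not overlap, and the ratio within a pool averaged 1.27 ± 0.27 on the log2 scale (SD, n = 6 pools; exact sign-flip p = 0.03125, 0.052 after Benjamini-Hochberg adjustment over 15 lists). No list of the 15 passed 0.05 after that adjustment, 6 pairs allowing no p below 0.03125. The lists were chosen with earlier results of these data known, so the p-values of their sums, here and below, are no independent support. Both sexes showed the difference, with mean log2 ratios of 1.08 in females and 1.45 in males. Since these were bulk libraries, more microglial material per library and more RNA of these genes per cell cannot be told apart, here and for every other list below. NeuN marks neuronal nuclei, and the gate was meant to leave microglia out. None of the 15 lists of cell type markers was at 0 in any of its members over all 12 libraries.

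The gene with the strongest statistical support was Laptm5, a lysosomal protein of blood-derived and microglial cells (chr4:130638161-130663452, plus strand, GRCm39). Its lowest, median and highest levels were 13.1, 16.3 and 17.1 CPM in the sucrose-seeking and 42.2, 48.1 and 54.3 CPM in the overlapping libraries (log2 fold change 1.59, SE 0.097, adjusted p = 1.2e-06). Ctss, which encodes the lysosomal protease cathepsin S, measured 25.3, 26.4 and 35.5 CPM in the sucrose-seeking and 63.6, 79.9 and 90.1 CPM in the overlapping libraries (log2 fold change 1.46, SE 0.092, adjusted p = 1.2e-06). For Csf1r, the receptor that microglia need to survive, the values were 48.1, 63.0 and 75.8 CPM in the sucrose-seeking and 139, 163 and 196 CPM in the overlapping libraries (log2 fold change 1.41, SE 0.10, adjusted p = 4.7e-06). In each of these genes the lowest overlapping library lay above the highest sucrose-seeking library. The share of all genes tested that separated in this way is not given, here or for the genes below. The same separation held for Tmem119 (log2 fold change 1.41, SE 0.13) and the purinergic receptor P2ry12 (1.11, SE 0.12), both of which mark homeostatic microglia rather than invading macrophages. It held too for the fractalkine receptor Cx3cr1 (1.36, SE 0.18) and the complement subunits C1qa (1.34), C1qb (1.36) and C1qc (1.60). Fcrl2 (1.23, SE 0.14), an Fc receptor-like protein, and Itgb2 (1.25, SE 0.19), the beta chain of leukocyte integrins, belonged to no list fixed here and moved in the same way. With length-scaled counts 14 of the microglial markers were higher and without the pool block 14.

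**Figure D1:**
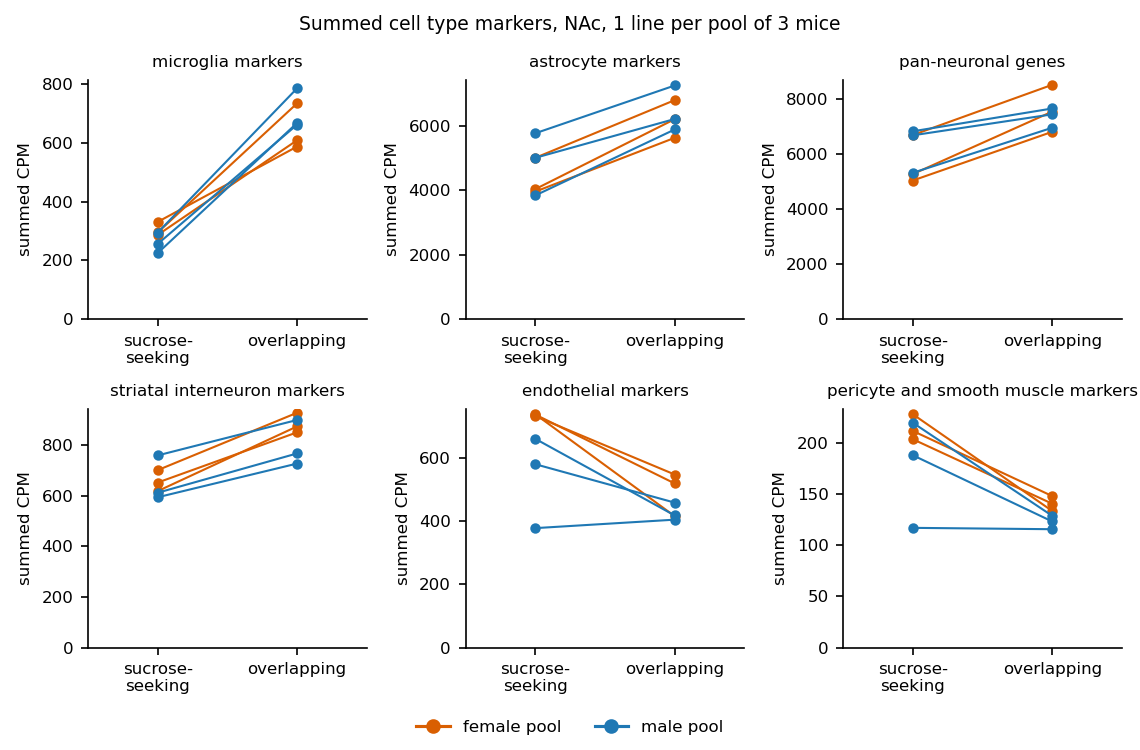
Summed marker levels (vertical axes, CPM, from 0) of 6 cell type lists in the sucrose-seeking and overlapping libraries; each line joins the libraries of 1 pool of 3 mice, orange for female and blue for male pools. The microglial sum rises in all 6 pools without overlap between the populations, while the endothelial sum falls in 5 of 6 pools, the exception being male pool 1.

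Genes of blood vessels went the other way. Of 18 endothelial markers 15 were lower in overlapping libraries and none was higher, with a median log2 fold change of -0.84. Of 12 pericyte and smooth muscle markers 5 were lower and none was higher (median -0.44). Flt1, a receptor for vascular endothelial growth factor, had its lowest, median and highest levels at 49.9, 94.0 and 109.8 CPM in the sucrose-seeking and 30.8, 37.2 and 54.1 CPM in the overlapping libraries (chr5:147498414-147662826, minus strand, GRCm39; log2 fold change -1.16, SE 0.13, adjusted p = 0.0001). Its groups overlapped only through the sucrose-seeking library of male pool 1 and the highest overlapping library. The second receptor for that factor, Kdr, had a log2 fold change of -0.96 (SE 0.15), and Slco1a4, an organic anion transporter of the blood-brain barrier, one of -1.28 (SE 0.16). For Pecam1, an adhesion molecule at endothelial junctions, the values were 18.3, 26.9 and 27.9 CPM in the sucrose-seeking and 11.8, 14.7 and 15.5 CPM in the overlapping libraries, without overlap (log2 fold change -0.77, SE 0.11, adjusted p = 0.00064). Cldn5, the main tight junction protein of the barrier, was lower in 5 of 6 pools (log2 fold change -1.29, SE 0.33, adjusted p = 0.017, a call lost when leaving out female pools 1, 2 or 3 or male pools 2 or 3). The adhesion receptor Adgrf5 (-0.84), the lipid flippase Atp10a (-0.82), and the pericyte genes Rgs5 (-0.84), Abcc9 (-0.76) and Vtn (-0.67) were lower as well.

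The summed endothelial markers were 379 to 740.2 CPM in the sucrose-seeking and 406 to 549 CPM in the overlapping libraries, and the pericyte markers 117 to 228 CPM in the sucrose-seeking and 116 to 148 CPM in the overlapping libraries. The ratio averaged -0.44 ± 0.32 on the log2 scale for the endothelial list (exact sign-flip p = 0.0625, 0.094 after Benjamini-Hochberg adjustment over 15 lists) and -0.54 ± 0.28 for the pericyte list (exact sign-flip p = 0.03125, 0.052 after Benjamini-Hochberg adjustment over 15 lists). Male pool 1 stood apart in both: its sucrose-seeking library held 379 CPM of endothelial markers against 406 CPM in its overlapping partner, and 117 against 116 CPM of pericyte markers. Leaving that pool out gave 16 endothelial and 5 pericyte genes called lower, and the pericyte number was 3 without female pool 1 and 3 without female pool 2. Length-scaled counts gave 6 and 2, and the fit without the pool block 10 and 3. Of 22 genes of collagens, laminins and the basement membrane, the sheet on which vessels rest, 7 were lower and 1 higher. Fn1, which encodes fibronectin, changed by -0.56 (SE 0.094), Col6a1 by -0.56 (SE 0.090) and the laminin chain Lama4 by -0.54 (SE 0.14, a call lost when leaving out female pools 1 or 3). The single member that was higher was Sparc (0.51, SE 0.078), a secreted collagen-binding protein. The number lower was 2 without female pool 1, 3 without female pool 2, 2 without female pool 3, 11 without male pool 1, 4 without male pool 2 and 4 without male pool 3, length-scaled counts gave 5, and the fit without the pool block 1.

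Astrocyte genes were higher in overlapping libraries. Of 14 markers 11 were higher and none lower, and the summed level was 3837 to 5767 CPM in the sucrose-seeking and 5627 to 7251 CPM in the overlapping libraries, a log2 ratio of 0.47 ± 0.14 (n = 6 pools; exact sign-flip p = 0.03125, 0.052 after Benjamini-Hochberg adjustment over 15 lists). Slc1a3, which takes up glutamate from the synaptic cleft, measured 273, 319.8 and 385 CPM in the sucrose-seeking and 449, 473 and 570.0 CPM in the overlapping libraries, without overlap (log2 fold change 0.59, SE 0.066, adjusted p = 0.0001). The second astrocytic glutamate transporter, Slc1a2, changed by 0.50 (SE 0.060), the water channel Aqp4 by 0.57 (SE 0.085) and the gap junction protein Gja1 by 0.51 (SE 0.071). With length-scaled counts 4 astrocyte genes were called higher, and without the pool block 4. Genes of myelinating oligodendrocytes showed no such direction: 2 of 14 were lower and none was higher, the summed level was 2189.7 to 3461 CPM in the sucrose-seeking and 2025 to 3215 CPM in the overlapping libraries, and the log2 ratio was 0.016 ± 0.13 (exact sign-flip p = 0.78125, 0.781 after Benjamini-Hochberg adjustment over 15 lists), with a sign that turned to -0.099 when CPM were taken over protein-coding genes. Myelin basic protein, Mbp, had a log2 fold change of 0.12 (SE 0.060, adjusted p = 0.2), whereas Opalin, a protein of mature oligodendrocytes, was lower (log2 fold change -0.67, SE 0.15, adjusted p = 0.0063). Of 8 markers of oligodendrocyte precursors 1 was higher and 1 lower, the lower one being Vcan (log2 fold change -0.34, SE 0.077, adjusted p = 0.0078), which encodes the matrix proteoglycan versican. Oligodendrocyte genes called lower numbered 0 with length-scaled counts and 1 without the pool block, and precursor genes called in either direction 0 and 0.

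Genes shared by all neurons were higher in overlapping than in sucrose-seeking libraries, though their sum had its highest median in the non-ensemble libraries (levels below). Of 15 pan-neuronal genes 11 were higher and none lower (median log2 fold change 0.37), and their sum was 5035 to 6824 CPM in the sucrose-seeking and 6807 to 8515 CPM in the overlapping libraries. The 3 neurofilament chains led: Nefh measured 75.4, 119 and 148 CPM in the sucrose-seeking and 118, 201 and 216 CPM in the overlapping libraries (log2 fold change 0.67, SE 0.073, adjusted p = 0.0001), Nefl changed by 0.58 (SE 0.064) and Nefm by 0.58 (SE 0.075). The annotated spans of Nefl and Nefm overlap on opposite strands. Rbfox3, which encodes the NeuN antigen of the gate, did not pass the test (log2 fold change 0.14, SE 0.059, adjusted p = 0.12). The count was 6 with length-scaled counts and 3 without the pool block.

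Every one of the 6 genes for making and carrying GABA was higher. Slc32a1, the vesicular GABA transporter, measured 132, 150.2 and 216 CPM in the sucrose-seeking and 197, 239.9 and 331 CPM in the overlapping libraries (log2 fold change 0.59, SE 0.066, adjusted p = 0.00012). The mainly astrocytic plasma membrane transporter Slc6a11 (0.69, SE 0.076), the synthetic enzyme Gad1 (0.30, SE 0.081, a call lost when leaving out female pools 1, 2 or 3) and the degrading enzyme Abat (0.29, SE 0.060) were higher too. With length-scaled counts 1 of the 6 was called, Abat turning to a log2 fold change of -0.12, and without the pool block 1 was.

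Interneuron genes were higher where they differed. Of 18 markers 8 were higher and none lower, and the sum was 593 to 758 CPM in the sucrose-seeking and 726 to 927 CPM in the overlapping libraries, a log2 ratio of 0.36 ± 0.09 (n = 6 pools; exact sign-flip p = 0.03125, 0.052 after Benjamini-Hochberg adjustment over 15 lists). Sst, the peptide somatostatin, measured 105, 142 and 173 CPM in the sucrose-seeking and 189, 231 and 283 CPM in the overlapping libraries, without overlap (chr16:23707321-23711733, minus strand, GRCm39; log2 fold change 0.75, SE 0.067, adjusted p = 2.6e-05). In the same class of interneurons, Npy changed by 0.55 (SE 0.093) and the nitric oxide synthase Nos1 by 0.51 (SE 0.071), and Lhx6, a transcription factor of interneurons from the medial ganglionic eminence, by 0.47 (SE 0.087). Length-scaled counts called 4 members higher, and in them Nos1 had a log2 fold change of -0.02. The fit without the pool block called 4. Of 17 neuropeptide genes, which include Sst and Npy, 7 were higher and none lower, among them Cartpt (log2 fold change 0.68, SE 0.13, adjusted p = 0.0029), the precursor of the CART peptides. With length-scaled counts 3 of them were higher, and without the pool block 2.

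The dopamine receptors that define the medium spiny neuron classes did not pass the test, whereas some other genes of these classes were higher. Drd1 measured 62.8, 83.3 and 106 CPM in the sucrose-seeking and 50.4, 94.5 and 111 CPM in the overlapping libraries (log2 fold change 0.054, SE 0.074, adjusted p = 0.71), and Drd2 measured 57.7, 90.1 and 106 CPM in the sucrose-seeking and 50.1, 109 and 125 CPM in the overlapping libraries (0.20, SE 0.080, adjusted p = 0.1). In both genes the groups overlapped over most of their range. Of 8 D1 markers 1 was higher and none lower, namely Pdyn, the precursor of dynorphin (log2 fold change 0.31, SE 0.071, adjusted p = 0.0092, a call lost when leaving out female pools 2 or 3), while the substance P precursor Tac1 was at 0.12 (SE 0.091, adjusted p = 0.45). Over all genes tested 9.87% were higher, a share near that of the D1 list. Of 6 D2 markers 2 were higher and none lower, the enkephalin precursor Penk among them with 483, 779 and 956 CPM in the sucrose-seeking and 539, 1045 and 1242 CPM in the overlapping libraries (log2 fold change 0.34, SE 0.059, adjusted p = 0.0017). The summed D1 markers were 263 to 438 CPM in the sucrose-seeking and 269 to 472 CPM in the overlapping libraries (log2 ratio 0.11 ± 0.12; exact sign-flip p = 0.09375, 0.128 after Benjamini-Hochberg adjustment over 15 lists; -0.0070 on protein-coding CPM), and the summed D2 markers 654 to 1261 CPM in the sucrose-seeking and 688 to 1594 CPM in the overlapping libraries (log2 ratio 0.30 ± 0.14; exact sign-flip p = 0.03125, 0.052 after Benjamini-Hochberg adjustment over 15 lists). D1 markers called higher numbered 0 both with length-scaled counts and without the pool block, and D2 markers 0 both with length-scaled counts and without the pool block. The D2 number was 1 without female pool 2 and 4 without male pool 1. Of 20 genes listed as common to both classes, which also hold Tac1 of the D1 list, 6 were higher and 1 lower. Ppp1r1b, the dopamine-regulated phosphatase inhibitor DARPP-32, changed by 0.42 (SE 0.057), the transcription factor Bcl11b by 0.32 (SE 0.057) and the sodium channel subunit Scn4b by 0.34 (SE 0.062). Rgs9, a striatal regulator of G-protein signalling, went down in all 6 pools (log2 fold change -0.37, SE 0.066, adjusted p = 0.0019). Length-scaled counts called 1 of these common genes higher and the fit without the pool block 0. Markers of cortical glutamatergic neurons, which the accumbens should lack, were not at 0: the sum was 396 to 819.7 CPM in the sucrose-seeking and 528 to 932 CPM in the overlapping libraries, and 4 of 11 were higher, among them the vesicular glutamate transporter Slc17a7 (log2 fold change 0.51, SE 0.067, adjusted p = 0.0003). The number was 2 without female pool 2, 2 without female pool 3 and 2 without male pool 2, and it was 0 both with length-scaled counts and without the pool block. Slc17a7 itself had a log2 fold change of 0.016 with length-scaled counts.

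Synaptic genes were mostly higher as well. Of 30 genes of synaptic vesicles and transmitter release 23 were higher and 2 lower (median 0.34). Bsn, a scaffold of the presynaptic active zone, measured 883, 1026 and 1213 CPM in the sucrose-seeking and 1294, 1471 and 1556 CPM in the overlapping libraries, without overlap (log2 fold change 0.49, SE 0.054, adjusted p = 0.0001). The vesicle proteins Sv2a (0.55, SE 0.061), Syp (0.56, SE 0.070) and Syt2 (0.67, SE 0.073), a fast calcium sensor, followed. On the postsynaptic side 13 of 24 density genes were higher and 1 was lower, with Nrgn, the calmodulin-binding neurogranin, at 0.50 (SE 0.072) and the scaffold Shank1 at 0.39 (SE 0.060). In contrast to these lists, the receptors for glutamate were split. Of 18 ionotropic glutamate receptor genes 3 were higher and 4 lower, the kainate receptor subunits Grik3 (0.39, SE 0.062) and Grik2 (-0.39, SE 0.084) moving in opposite directions. Of 8 metabotropic glutamate receptor genes 2 were higher and 1 lower, and of 14 GABA-A receptor genes 5 were higher and 1 lower. Over all genes tested 9.87% were higher and 5.95% lower, and the lower GABA-A receptor count was near that share. Leaving out single pools changed several of these numbers by more than 1.5 times: vesicle genes called higher numbered 15 without female pool 1 and 15 without female pool 2, density genes 6 without female pool 3 and 6 without male pool 2 and GABA-A receptor genes 3 without female pool 1, 3 without female pool 2, 3 without female pool 3 and 3 without male pool 2, and ionotropic glutamate receptor genes called lower 1 without female pool 2 and 2 without male pool 2.

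Channels and second messengers were mostly higher where they differed. Of 26 potassium channel genes 7 were higher and none lower, Kcna2, a delayed rectifier of axons, with 186, 232 and 255 CPM in the sucrose-seeking and 269.6, 297 and 323 CPM in the overlapping libraries and no overlap (log2 fold change 0.41, SE 0.063, adjusted p = 0.0008). Of 25 sodium and calcium channel genes 11 were higher and 3 lower, the sodium channel beta subunit Scn2b (0.52, SE 0.060) among the higher. In the cyclic AMP and protein kinase A list 12 of 23 were higher and none lower, including the stimulatory G-protein gene Gnas (0.51, SE 0.063) and adenylyl cyclase Adcy1 (0.42, SE 0.062). Of 10 dopamine, opioid and cannabinoid receptor genes 1 was higher, the cannabinoid receptor Cnr1 (log2 fold change 0.28, SE 0.069, adjusted p = 0.013, a call lost when leaving out female pool 3), and 1 lower, the kappa opioid receptor Oprk1 (log2 fold change -0.40, SE 0.11, adjusted p = 0.024, a call lost when leaving out female pools 1 or 2 or male pool 3), which is the target of dynorphin. These counts were near the shares over all genes tested, 9.87% higher and 5.95% lower. The numbers of the synaptic, channel and receptor lists depended on the processing. With length-scaled counts the number higher was 7 for vesicle genes, 0 for density genes, 2 for GABA-A receptors, 0 for potassium channels, 1 for sodium and calcium channels and 2 for the cyclic AMP list. Without the pool block these numbers were 5, 0, 1, 1, 2 and 1. Sodium and calcium channel genes called higher numbered 6 without female pool 1, 6 without female pool 2, 5 without female pool 3 and 6 without male pool 2. Ionotropic glutamate receptor genes called higher numbered 0 both with length-scaled counts and without the pool block and called lower 1 with length-scaled counts and 0 without the pool block. Metabotropic receptor genes called higher numbered 0 both with length-scaled counts and without the pool block. Of the sodium and calcium channel genes called lower, the number was 0 both with length-scaled counts and without the pool block, and of the vesicle genes 0 both with length-scaled counts and without the pool block. Neither Cnr1 nor Oprk1 was called under either alternative. Grik3 and Adcy1 turned below 0 with length-scaled counts (-0.001 and -0.19).

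**Figure D2:**
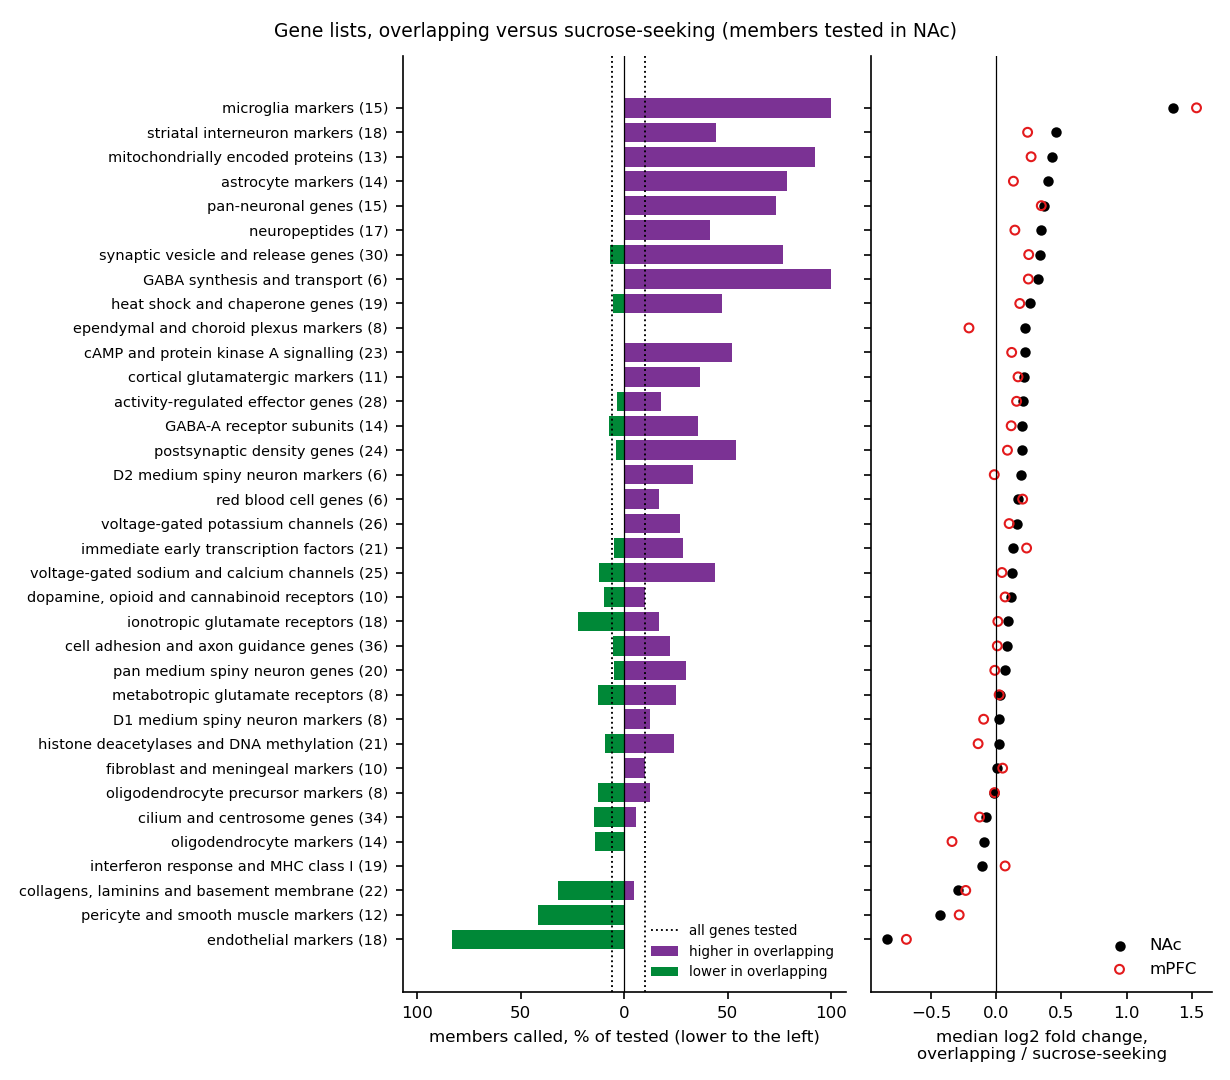
Left, share of each list's tested members (number in brackets) called higher (to the right) or lower (to the left) in overlapping libraries, in percent, with dotted lines at the shares over all genes tested; right, median log2 fold change of each list in the NAc (filled) and the mPFC (open). The microglial list lies at 1.36 in the NAc and the endothelial list at -0.84, the ends of the ranking, and the lists between them sit between -0.44 and 0.46.

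Activity-regulated genes were examined next, since both populations had been sorted on cFos protein. Fos RNA itself did not pass the test: its lowest, median and highest levels were 5.81, 9.30 and 18.3 CPM in the sucrose-seeking and 7.38, 10.8 and 16.5 CPM in the overlapping libraries (log2 fold change 0.16, SE 0.15, adjusted p = 0.53), and it was higher in 3 of 6 pools. Across the 4 populations sorted from the same pools, mean Fos levels were 10.3 ± 5.19 CPM in sucrose-seeking, 11.0 ± 3.83 in overlapping, 11.7 ± 4.92 in the cocaine-seeking set and 13.2 ± 5.77 in the non-ensemble set (SD, n = 6 each). The cFos-positive populations thus had the lowest means, with differences smaller than these SDs. RNA and protein of this gene are known to peak at different times after activity. Its paralogue Fosb was at -0.068 (SE 0.14, adjusted p = 0.81).

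Of 21 immediate early transcription factors 6 were higher and 1 lower (median 0.13), against 9.87% higher and 5.95% lower over all genes tested. The lower count was not above that share. The higher ones included members of the Jun family, which pair with Fos proteins in the AP-1 factor. Jund measured 73.4, 98.0 and 138 CPM in the sucrose-seeking and 127, 159 and 182 CPM in the overlapping libraries (log2 fold change 0.66, SE 0.085, adjusted p = 0.00028), Junb measured 14.3, 19.0 and 21.7 CPM in the sucrose-seeking and 19.4, 27.4 and 40.3 CPM in the overlapping libraries (log2 fold change 0.56, SE 0.11, adjusted p = 0.0039), and Jun changed by 0.35 (SE 0.081, a call lost when leaving out female pool 3). Ier5, an early gene of growth and stress responses, had 35.0, 36.8 and 48.7 CPM in the sucrose-seeking and 50.7, 59.0 and 63.9 CPM in the overlapping libraries, without overlap (log2 fold change 0.54, SE 0.093, adjusted p = 0.0016). Npas4, a factor that responds to calcium entry in neurons and builds inhibitory synapses, was the one that was lower, with 12.1, 22.6 and 31.4 CPM in the sucrose-seeking and 8.17, 17.0 and 23.9 CPM in the overlapping libraries (chr19:5034382-5040344, minus strand, GRCm39; log2 fold change -0.48, SE 0.14, adjusted p = 0.028, a call lost when leaving out female pools 1, 2 or 3 or male pools 2 or 3), and was lower in 5 of 6 pools. Egr1 was at 0.44 (SE 0.17, adjusted p = 0.092), with 0.93 in females and -0.072 in males, and Nr4a1 at 0.13 (SE 0.082, adjusted p = 0.34). Among 28 effector genes 5 were higher and 1 lower, the lower count again not above the share over all genes tested. Vgf, the precursor of secreted neuropeptides, measured 102, 131 and 159 CPM in the sucrose-seeking and 157, 197 and 243 CPM in the overlapping libraries (log2 fold change 0.62, SE 0.063, adjusted p = 7.5e-05), and Scg2, a granin of dense-core vesicles, measured 179.7, 216 and 287 CPM in the sucrose-seeking and 246, 309.5 and 416 CPM in the overlapping libraries (log2 fold change 0.52, SE 0.067, adjusted p = 0.00029). Arc, which drives the removal of AMPA receptors, was higher in all 6 pools by a small amount (log2 fold change 0.24, SE 0.068, adjusted p = 0.024, a call lost when leaving out female pools 1 or 2 or male pools 2 or 3). The mean Arc level was highest in the non-ensemble set, at 134.7 ± 41.2 CPM (SD). The overlapping set had 102.1 ± 26.4, the cocaine-seeking set 100.4 ± 23.9 and the sucrose-seeking set 85.8 ± 22.4 CPM, compared without a test. Inhba, a subunit of activin, was lower (log2 fold change -0.29, SE 0.075, adjusted p = 0.016). Homer1 (0.047, SE 0.057, adjusted p = 0.67) and Bdnf (0.099, SE 0.17, adjusted p = 0.78) did not pass the test. With length-scaled counts 1 transcription factor and 1 effector was higher and Arc was at -0.14. Without the pool block the numbers were 3 and 2. Transcription factors called higher numbered 3 without female pool 3, and effectors 2 without female pool 1, 2 without female pool 2, 3 without female pool 3, 3 without male pool 2 and 3 without male pool 3.

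**Figure D3:**
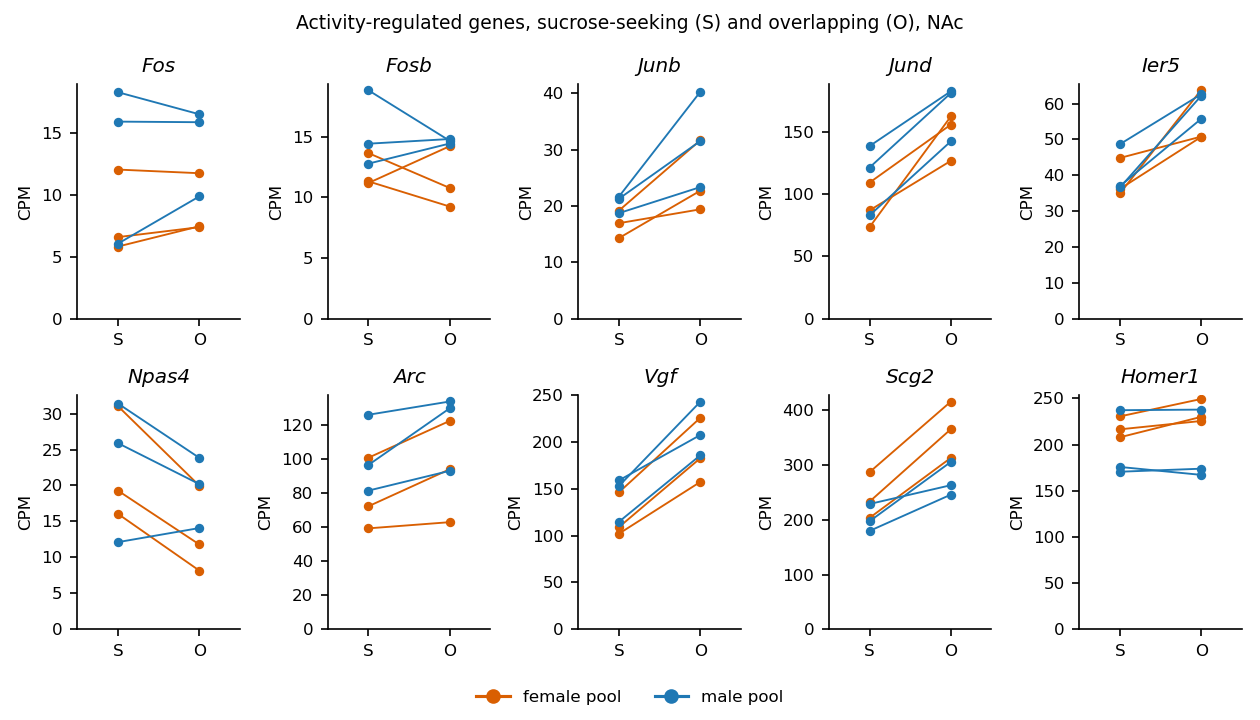
Levels (vertical axes, CPM, from 0) of 10 activity-regulated genes in sucrose-seeking (S) and overlapping (O) libraries; lines join the libraries of 1 pool, orange for female and blue for male pools. Lines for Jund, Vgf and Scg2 rise in all 6 pools, those for Fos rise in 3 and fall in 3, and those for Npas4 fall in 5 of 6.

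Many of these genes are controlled through the cAMP response element, the site of the factor CREB, whose full form is TGACGTCA and whose core is TGACG. Promoter windows of 300 bases around the annotated start were taken from RefSeq (build GRCm38.p6) and searched on both strands, each full element also counting as a core. The core stood in the window of 14 of 18 transcription factor genes and 13 of 21 effector genes with an entry, against 23.1% of 27025 genes. The full element stood in 2 and 5 of them, against 2.03% of genes. Of the transcription factor genes with an entry, 2 of the 6 that were higher, the lower one and 11 of the 11 not called held a core. Of the effector genes, 3 of the 3 higher and 10 of the 17 not called did. Stretches of 120 bases upstream of the start of Scg2 and Junb, which were higher, Npas4, which was lower, and Fos, which did not pass the test, show what the sites look like. Each stretch reads 5′ to 3′ on the gene's strand, and capitals mark the cores.
Scg2, chr1:79440031-79440150, minus strand: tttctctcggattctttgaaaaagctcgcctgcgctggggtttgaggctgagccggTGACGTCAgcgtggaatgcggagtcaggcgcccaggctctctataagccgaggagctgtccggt
Junb, chr8:84978793-84978912, minus strand: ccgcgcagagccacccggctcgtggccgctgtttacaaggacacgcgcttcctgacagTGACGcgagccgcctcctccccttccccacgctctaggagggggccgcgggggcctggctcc
Npas4, chr19:4990084-4990203, minus strand: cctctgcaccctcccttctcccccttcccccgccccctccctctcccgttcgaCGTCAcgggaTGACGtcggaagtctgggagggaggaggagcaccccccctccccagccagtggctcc
Fos, chr12:85473735-85473854, plus strand: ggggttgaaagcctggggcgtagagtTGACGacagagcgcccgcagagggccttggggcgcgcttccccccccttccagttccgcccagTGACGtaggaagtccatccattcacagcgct
The 2 cores of Scg2, on opposite strands, overlap and form the full element 68 bases upstream of the start. Those of Npas4 and Fos are separate, and the 250 bases upstream of the start of Junb hold a single one. A match is a description of these letters only.

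Among 13 proteins encoded by the mitochondrial genome 12 were higher and none lower. The cytochrome oxidase subunit mt-Co2 measured 436, 787 and 1031 CPM in the sucrose-seeking and 963, 1540.4 and 2189.8 CPM in the overlapping libraries (log2 fold change 1.05, SE 0.16, adjusted p = 0.00073) and was higher in 5 of 6 pools, and the complex I subunit mt-Nd5 changed by 0.52 (SE 0.076). mt-Nd5 overlaps another subunit on the opposite strand, and copies of mitochondrial genes in the nuclear genome can share reads with them. The count was 5 with length-scaled counts and 3 without the pool block. Of 19 heat shock and chaperone genes 9 were higher and 1 lower, with the chaperones Hsp90ab1 at 0.39 (SE 0.071) and Dnajb1 at 0.46 (SE 0.092). Of these, 1 was higher with length-scaled counts and 0 without the block.

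Protein-coding genes that averaged 10 CPM or more and moved one way in all 6 pools were ranked by their fold change, and several of the first belonged to no list. Gm49804, a predicted gene whose span on chromosome 17 overlaps Nudt3 and Rps10, ranked highest (log2 fold change 2.24, SE 0.35, adjusted p = 0.00085), with 0.177, 6.80 and 20.7 CPM in the sucrose-seeking and 1.16, 32.3 and 70.9 CPM in the overlapping libraries, so that the libraries of each population spread widely and overlapped. Slc35a4, a nucleotide sugar transporter, had a mean of 7.99 CPM in sucrose-seeking and 18.4 CPM in overlapping libraries (adjusted p = 0.0049). The lowest rank was that of Knop1, a nucleolar protein, with 4.24, 30.7 and 36.5 CPM in the sucrose-seeking and 1.89, 4.37 and 34.1 CPM in the overlapping libraries (log2 fold change -1.46, SE 0.42, adjusted p = 0.029, a call lost when leaving out female pools 1 or 2 or male pool 2). Mgat4c, a glycosyltransferase, ran from 15.1 to 29.0 CPM in the sucrose-seeking and from 6.44 to 15.5 CPM in the overlapping libraries (log2 fold change -1.01, SE 0.13, adjusted p = 0.00028), and Mns1, a cilium and flagellum protein, measured 11.2, 15.9 and 19.9 CPM in the sucrose-seeking and 5.57, 7.68 and 10.3 CPM in the overlapping libraries, without overlap (log2 fold change -0.99, SE 0.18, adjusted p = 0.0024). Atp13a5 (-1.04), which brain pericytes express, Plekhn1 (-0.84), the predicted gene Gm4924 (-0.84) and the interferon-inducible GTPase Gvin2 (-0.85), which has near-identical relatives and is therefore uncertain, were lower too. Knop1, Mns1 and Slc35a4 overlap neighbouring genes in the annotation, and whether the counting used strand is not given in the sources used here.

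**Figure D4:**
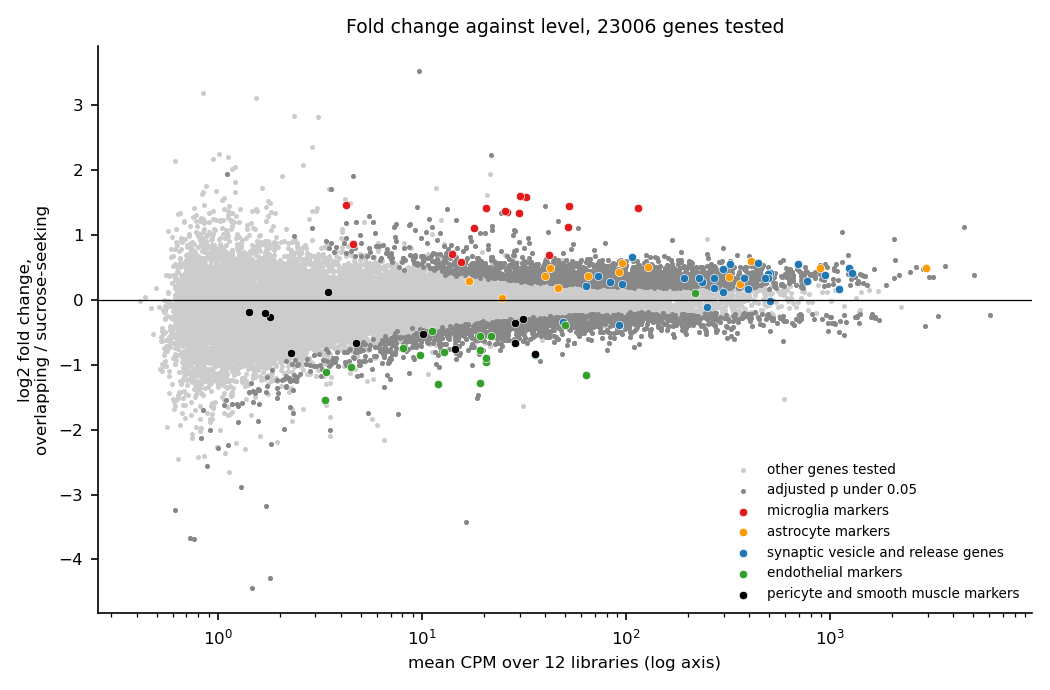
Log2 fold change of overlapping over sucrose-seeking libraries (vertical axis) against the mean level over the 12 libraries (horizontal axis, CPM, log scale) for 23006 genes; dark grey points have an adjusted p under 0.05 and colours mark 5 lists. Microglial markers lie above 0 and all but 1 of the endothelial markers below it, while synaptic vesicle genes cluster a little above 0 at high levels.

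The cocaine-seeking (tdTomato without cFos) and non-ensemble (neither) libraries of the same pools were set beside them as levels, with no test. The summed microglial markers were 491 to 636 in the cocaine-seeking, 569.6 to 764 in the overlapping, 216 to 320.4 in the sucrose-seeking and 275 to 377 in the non-ensemble libraries (CPM). Every tdTomato-positive library thus lay above every tdTomato-negative one, whatever its cFos state. The endothelial sums were 422 to 554 in the cocaine-seeking, 391 to 532 in the overlapping, 362 to 714 in the sucrose-seeking and 429.7 to 529.9 in the non-ensemble libraries, and the interneuron sums 667 to 1003 in the cocaine-seeking, 705 to 898 in the overlapping, 574 to 725 in the sucrose-seeking and 694 to 909 in the non-ensemble libraries. For the endothelial list, 5 of the 6 sucrose-seeking libraries were above all libraries of the other 3 populations. Sst averaged 133 ± 22.4 CPM in sucrose-seeking libraries and 223 ± 33.6, 226 ± 65.6 and 227 ± 34.7 CPM in overlapping, cocaine-seeking and non-ensemble libraries (SD, n = 6). The astrocyte sums were 5554 to 7785 in the cocaine-seeking, 5409.5 to 7039.8 in the overlapping, 3682 to 5582 in the sucrose-seeking and 6182 to 7875 in the non-ensemble libraries. The medians of the interneuron list were 611 CPM in sucrose-seeking, 830.2 in overlapping, 830.2 in cocaine-seeking and 818 in non-ensemble sorts, and those of the astrocyte list 4343, 5994, 6159 and 7470.2 CPM in that order. For both lists the sucrose-seeking median was thus the lowest of the 4, though the ranges overlapped in part. Pan-neuronal medians were 5744 CPM in sucrose-seeking, 7233 in overlapping, 7201 in cocaine-seeking and 9212 in non-ensemble sorts. Those of the D1 markers were 351, 395, 425 and 447 CPM in that order, and of the D2 markers 1002, 1322, 1367 and 1586 CPM. In these neuronal lists the sucrose-seeking median was the lowest and the non-ensemble median the highest.

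**Figure D5:**
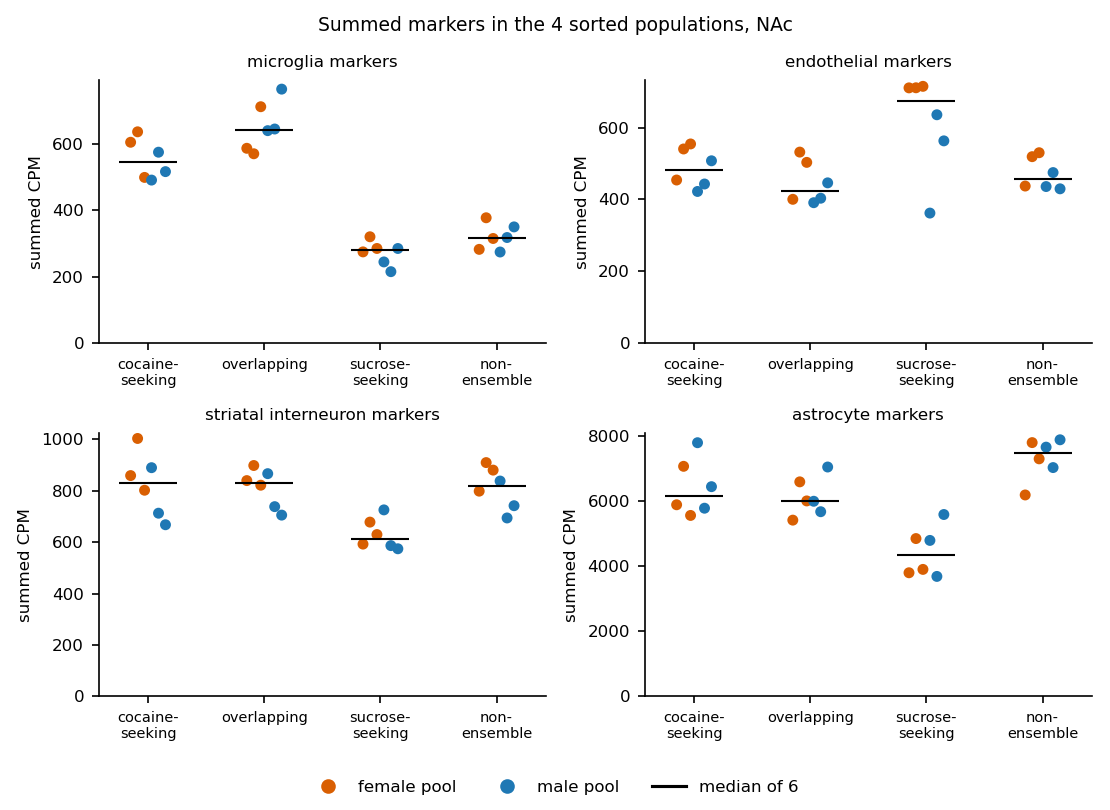
Summed marker levels (vertical axes, CPM, from 0) of 4 lists in the 4 populations sorted from each pool; points are libraries, orange for female and blue for male pools, and bars are medians of 6. Microglial sums separate the tdTomato-positive populations on the left from the others, and the endothelial sums are raised in 5 of 6 sucrose-seeking libraries.

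The comparison was also made in each labelled sex. In females 3664 of 23711 genes (15.5%) differed and in males 44 of 23187 (0.19%), with 3 pools on each side. Without female pool 2, a setting added after seeing the data, the female count was 2566. Of the 88 called genes of the text, 76 were not called in males alone. There 10 microglial markers were called, 1 pan-neuronal gene, 1 interneuron marker, 1 neuropeptide gene and 1 vesicle gene, and no member of any other list, endothelial and astrocyte markers included. A smaller count in 1 sex does not show that the sexes differed. In the test of the difference itself 1 gene of 23006 (0.00435%) passed, and 1501 had an unadjusted p under 0.05. DESeq2 called 31 genes, the edgeR likelihood-ratio test 18 and limma-voom 5. The gene was Cacna1h, which encodes a low-voltage-activated T-type calcium channel (chr17:25593259-25652764, minus strand, GRCm39). In the 3 female pools it measured 27.0, 29.1 and 24.3 CPM in sucrose-seeking and 6.91, 4.79 and 5.14 CPM in overlapping libraries. In the 3 male pools the values were 4.26, 15.3 and 19.8 CPM and 8.22, 20.8 and 53.5 CPM in the same order. It thus went down in all female and up in all male pools, and the log2 fold changes differed by 3.22 (SE 0.29, adjusted p = 0.00081). The span of the gene overlaps Tpsg1 on the other strand. For the lists described above, the median log2 fold change had the same sign in both sexes for microglial (1.08 in females, 1.56 in males), endothelial (-1.02, -0.64), astrocyte (0.51, 0.30), interneuron (0.42, 0.29) and pan-neuronal genes (0.51, 0.20). It had opposite signs for D1 medium spiny neuron markers (0.095, -0.074), pan medium spiny neuron genes (0.23, -0.029), oligodendrocyte precursor markers (0.069, -0.043), fibroblast and meningeal markers (-0.062, 0.045), metabotropic glutamate receptors (0.072, -0.037) and histone deacetylases and DNA methylation (-0.057, 0.016).

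The same populations were sorted from the medial prefrontal cortex (mPFC) of the same mice, which gave 12 further libraries by their titles. Cortical markers bore out that label in part of the pools: Slc17a7 was at 279 to 515 CPM in male pools 1 and 3 but at 19.3 to 88.4 CPM in the other 4 pools, below the 136 to 555 CPM of the NAc libraries. The label of those 4 pools was thus not borne out by this marker. In all 6 pools the microglial sum was higher in the overlapping library, with log2 ratios of 1.28 to 1.72, and the endothelial sum lower (-0.56 to -0.24). In the libraries labelled mPFC 1922 of 26389 genes (7.28%) differed between overlapping and sucrose-seeking libraries. No gene passed the test of a difference between the regions (0 of 26389, 0%, edgeR), while 1722 had an unadjusted p under 0.05, and DESeq2 called 17, the likelihood-ratio test 23 and limma-voom 0. Of the microglial markers 14 of 15 were higher in the libraries labelled mPFC as well (median 1.54), with Csf1r at 1.75 (SE 0.10). Of the endothelial markers 9 of 18 were lower (median -0.69), with Flt1 at -0.82 (SE 0.13). Sst was at 0.74 (SE 0.06) and Vgf at 0.53 (SE 0.07), close to their NAc values of 0.75 and 0.62. Among astrocyte markers, 2 of 14 were higher in these libraries, where Gja1 was at -0.015 (SE 0.07) against 0.51 in the NAc. The difference between the regions was 0.53 for that gene (SE 0.10, adjusted p = 0.21).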

How the data were processed

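RNA from sorted NeuN+ cells was sequenced as ribosome-depleted low-input libraries (the labels call the molecule polyA RNA). Per the labels and methods, the authors ran cutadapt and FastQC on the reads, then Salmon with transcripts of build GRCm39; their versions were not given in these sources. Deposited values were estimated counts, TPM and effective transcript lengths per transcript. Estimated counts were summed to 35889 genes through GENCODE M39 (116085 of 117209 transcripts matched; 2.85 to 5.08% of counts were not) and rounded. The TPM the authors deposited, with their effective lengths, served only for the length-scaled alternative.

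Counts were tested with edgeR 4.0.16 (quasi-likelihood, TMM, filterByExpr by population, pool as a block, Benjamini-Hochberg adjustment over all genes tested); DESeq2 1.42.0, limma-voom 3.58.1 and the likelihood-ratio test were alternatives. Same-numbered libraries came from the same mice, so they were paired. Deviations from the sex and population mean correlated at 0.27 within pools (0.079 to 0.46, 6 pairs) and -0.13 between other pools of a sex. Such deviations cancel out within each sex and population, so the -0.13 follows largely from the within-pool value. It is therefore no separate evidence for the pairing. CPM used TMM-scaled library sizes. Sums and shares were tested by exact two-sided sign-flip permutation over 6 pools. Scripts were tested on simulated data.

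The populations and all 35 gene lists were chosen with earlier results of these data known. Named genes were the 12 highest and 12 lowest called protein-coding genes with at least 10 CPM and one direction in all 6 pools, up to 4 called members per list, 22 genes fixed by name, and up to 5 called genes of the sex and region differences; not all are printed, and some are not reported here. Samples were grouped by title code, which the description field contradicted for the female NAc and male prefrontal libraries. With 1 pool of mice per library and the pool as a block, p-values measure how the difference within pools varies from pool to pool. Total counts limit precision. The SEs of log2 fold changes come from the quasi-likelihood fit and cover the variation of the within-pool difference across pools as well as counting error. Libraries of naive mice and the other mPFC populations were not used here.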

Additional observations from a re-analysis of the deposited data

Results flagged for a closer look

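Cacna1h was picked out because its change differed between the sexes in a test of that difference: the log2 fold change in males exceeded that in females by 3.22. In 1 overlapping library, from a male pool, it was at 53.5 CPM, far above the population's median of 7.57 CPM.

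Other results were picked out because 1 of the 6 libraries of a population lay far from the rest, which chance brings about in roughly 1 in 20 groups; 15 of 238 groups showed it. In the sucrose-seeking population the lowest library stood apart for Laptm5 (13.1 against a median of 16.3 CPM), Rgs5 (14.2 against 53.0), Abcc9 (10.8 against 19.0), Lhx6 (21.4 against 29.0), Grik2 (116 against 207) and the summed pericyte and smooth muscle markers (117 against 208). The highest sucrose-seeking library stood apart for Ctss (35.5 against 26.4), Rbfox3 (264 against 205), Tac1 (90.0 against 68.1), Opalin (16.3 against 13.5), Bdnf (16.6 against 7.52), the summed cortical glutamatergic markers (819.7 against 517) and the share of counts in the 100 most abundant genes (16.2 against 14.7%). In the overlapping population the highest library stood apart for Flt1 (54.1 against 37.2 CPM).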

How the results depend on the processing

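The main count of 3639 genes stayed within 1.5 times under DESeq2, limma-voom, the likelihood-ratio test, other size factors, no filter, protein-coding genes alone, all 24 NAc libraries in 1 fit and females alone. It fell to 811 with length-scaled counts, 44 in males alone, 123 at the thresholds of the study, and, without pairing by a replicate block, to 602 with sex as a term and 589 without it. Leaving out single pools gave 1996 to 4541. The sex difference gave 31 genes with DESeq2, 18 with the likelihood-ratio test, 5 with limma-voom, 0 without the block and 1 to 5 without single pools; the region difference gave 17, 23, 0, 0 and 0 to 1. Taking CPM over protein-coding genes shifted all ratios by -0.12 on the log2 scale, which brought the log2 ratio of the summed pan medium spiny neuron genes to 0.011, of interneuron markers to 0.24 and of oligodendrocyte precursor markers to -0.092. Log2 ratios of summed markers without single pools ranged over 1.20 to 1.35 for microglia and -0.55 to -0.37 for endothelium. Of 88 called genes of the text, 83 kept their sign throughout; with length-scaled counts 55 of the 88 were no longer called in their direction, without the block 37, and in males alone 76. Of the alternatives added after seeing the data, females alone without female pool 2 gave 2566 genes and protein-coding scaling with all genes tested 3596. Signs turned with length-scaled counts for Abat (-0.12), Nos1 (-0.017), Grik3 (-0.0010), Adcy1 (-0.19), Arc (-0.14) and, among genes not called, Rbfox3 (-0.066), Drd2 (-0.25) and Nr4a1 (-0.15). In males alone they turned for Drd1 (-0.075), Tac1 (-0.11), Egr1 (-0.072), Homer1 (-0.036) and Cacna1h (0.93), with protein-coding genes alone for Drd1 (-0.0034) and Homer1 (-0.010), and without 1 pool for Drd1, Homer1 and Bdnf, whose ranges without single pools were -0.0060 to 0.10, -0.0049 to 0.054 and -0.035 to 0.18. Of the called genes, 11 lost the call without at least 1 pool (Cldn5, Lama4, Gad1, Pdyn, Oprk1, Cnr1, Jun, Npas4, Arc, Knop1, Cep290). The causes were not tested.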

Other observations

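Some lists held few or no differences. Of 19 genes of the interferon response and MHC class I, which rise in activated microglia, none was called (median log2 fold change -0.11). None of 8 ependymal and choroid plexus markers and 1 of 10 fibroblast and meningeal markers was called, while of 6 red blood cell genes 1 was higher. Over all genes tested 15.8% were called in either direction, near the share of the red blood cell list. The summed level of the ependymal markers was 41.1 to 69.5 CPM in the sucrose-seeking and 45.8 to 68.2 CPM in the overlapping libraries, of the fibroblast markers 93.5 to 114 CPM in the sucrose-seeking and 94.3 to 132 CPM in the overlapping libraries and of the red blood cell genes 82.4 to 182 CPM in the sucrose-seeking and 99.4 to 239 CPM in the overlapping libraries.

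Of 34 genes of the centrosome and the primary cilium, the antenna that carries some receptors of neurons, 20.6% were called, 2 higher and 5 lower. Over all genes tested 15.8% were called, 9.87% higher and 5.95% lower. The called members thus leaned to lower, unlike the called genes as a whole. In the libraries labelled mPFC 0 members were higher and 5 lower. Dync2h1, the motor that carries cargo back from the ciliary tip, measured 106, 124 and 138 CPM in the sucrose-seeking and 77.6, 99.7 and 119 CPM in the overlapping libraries (log2 fold change -0.32, SE 0.067, adjusted p = 0.0049). Cep290, a protein of the ciliary base, measured 100.0, 104 and 108 CPM in the sucrose-seeking and 78.7, 85.8 and 101 CPM in the overlapping libraries (log2 fold change -0.26, SE 0.064, adjusted p = 0.012, a call lost when leaving out female pool 1). With length-scaled counts 2 members were lower and without the pool block 0, and the number was 2 without female pool 1, 2 without female pool 2, 3 without female pool 3, 9 without male pool 1 and 3 without male pool 3. Members called higher numbered 0 both with length-scaled counts and without the pool block, and 0 without female pool 1, 0 without female pool 2, 0 without female pool 3, 1 without male pool 2 and 0 without male pool 3. Against 9.87% higher and 5.95% lower over all genes tested, 5 of 21 genes of histone deacetylases and DNA methylation were higher and 2 lower. Of 36 genes of cell adhesion and axon guidance 8 were higher and 2 lower, the lower ones near the share over all genes. The numbers higher were 2 without female pool 1, 3 without female pool 2, 2 without female pool 3 and 2 without male pool 2 for the first list, and 5 without female pool 1, 4 without female pool 2 and 3 without female pool 3 for the second. With length-scaled counts 1 and 0 were higher in these lists, and without the pool block 0 and 0.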
